A study of Homo sapiens with 12 samples.

Results

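The genes described here are 6 insulin-like growth factor (IGF) binding proteins, IGFBP2 to IGFBP7, the IGF receptor IGF1R and the insulin receptor substrates IRS1 and IRS2. The 9 genes were chosen as a family and matched by symbol to the Ensembl identifiers of the count tables, out of 40649 genes in all, and every one was found. Their levels were not used to choose them, although results of these data were known when they were chosen.

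RNA was counted in 12 libraries of HK-2, an established, immortalised line of human proximal tubule epithelial cells, with 4 libraries in each of 3 groups. Group shYAP1_H2O2, labelled as a Yap1 knockdown, carried a hairpin against YAP1, the transcriptional co-activator of the Hippo pathway, and received hydrogen peroxide (H2O2) at 150 µM for 48 h. Group shNC_H2O2 carried the control hairpin and received the same H2O2, and group shNC carried the control hairpin and was untreated. All 3 groups are labelled as carrying a hairpin or a knockdown and grew in medium with fetal bovine serum, which itself holds IGFs and binding proteins. YAP1 knockdown was compared only under the oxidant. No source used here gives the hairpin sequence or says whether a group was 1 clone. The labels do not say that the 4 libraries of a group were grown separately, and p-values measure the spread between these libraries, which may be technical.

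IGF1 and IGF2 are secreted growth factors that bind the tyrosine kinase IGF1R, which phosphorylates the docking proteins IRS1 and IRS2 and so engages the PI3K-AKT and RAS-ERK pathways. Most IGF in body fluids is held by the IGF binding proteins, which prolong its life and limit its access to the receptor, and which proteases such as PAPPA cut to release it. Several binding proteins, among them IGFBP3, IGFBP5 and IGFBP7, are secreted by senescent cells, and the IGF system takes part in growth and repair of the renal tubule.

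Total counts ran between 30789997 and 46582873 per library. Levels are counts relative to library size (CPM) after scaling with TMM factors, and a gene is said to have risen or fallen where the edgeR quasi-likelihood test gave a Benjamini-Hochberg adjusted p under 0.05 over all 19268 tested genes. Values after ± are SD for levels (n = 4 per group) and standard errors (SE) for log2 fold changes. Genes of the mitochondrial genome took 11.3% of the counts of shYAP1_H2O2 replicate 3 and 13.9% of those of shNC replicate 4. The share was 4.54% to 5.64% in each of the remaining 10 libraries, and results that rest on the 2 libraries are given with them and in their absence. YAP1 itself was at 131, 135, 111 and 136 CPM in the libraries labelled shYAP1_H2O2, compared with 155, 151, 156 and 164 CPM in the shNC_H2O2 libraries. In shNC it was at 136, 130.3, 141 and 124 CPM. YAP1 was lower in shYAP1_H2O2 than in shNC_H2O2 (log2 fold change -0.29 ± 0.07, adjusted p = 0.00346) and did not differ detectably from shNC (-0.05 ± 0.07, 95% interval -0.20 to 0.10, adjusted p = 0.636). Every direction given for the hairpin refers to libraries so labelled. The epithelial markers EPCAM, CDH1, KRT8, KRT18 and KRT19 summed to 1120 to 1160 CPM in shYAP1_H2O2, 1210 to 1260 CPM in shNC_H2O2 and 965 to 1240 CPM in shNC. The proximal tubule markers summed to 302 to 391 CPM in shYAP1_H2O2, 244 to 269 CPM in shNC_H2O2 and 422 to 460 CPM in shNC, and their part in the results was not tested. PAX8 made up most of that sum. SLC34A1, a phosphate transporter of the tubule, averaged 1.61 CPM in shYAP1_H2O2, 0.245 CPM in shNC_H2O2 and 1.22 CPM in shNC, and GGT1 averaged 5.65 CPM in shYAP1_H2O2, 4.43 CPM in shNC_H2O2 and 3.67 CPM in shNC. LRP2, CUBN and HNF4A, which define the differentiated tubule, averaged under 0.3 CPM in every group. Of the epithelial markers, the cadherin CDH1 averaged 3.12 CPM in shYAP1_H2O2, 1.21 CPM in shNC_H2O2 and 5.81 CPM in shNC.

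With H2O2, IGFBP5, IGFBP6, IRS1 and IRS2 rose and IGFBP4 and IGF1R fell in shNC_H2O2 against shNC, whereas IGFBP3 and IGFBP7 did not pass. That is 4 higher and 2 lower of 8 tested genes, with a median log2 fold change of 0.34, beside 46.6% of all 19268 tested genes called (23.9% higher, 22.6% lower) and a median of 0.00. With the YAP1 hairpin under H2O2, IGFBP3, IGFBP5, IGFBP6, IGF1R and IRS1 fell in shYAP1_H2O2 against shNC_H2O2 and none rose. That count of 5 lower of 8, with a median of -0.40, stands beside 43.0% of all tested genes called, 22.0% higher and 21.0% lower. Between shYAP1_H2O2 and shNC, IRS1 and IRS2 were higher and IGFBP3, IGFBP4 and IGF1R lower, 2 higher and 3 lower of 8 with a median of -0.23, beside 32.5% of all tested genes (17.4% higher, 15.1% lower). The ninth gene, IGFBP2, was too low to test. Without the 2 libraries of high mitochondrial share 5 were higher and 2 lower with H2O2, 2 higher and 6 lower with the hairpin, and 2 higher and 5 lower in shYAP1_H2O2 against shNC, beside 59.4%, 57.3% and 46.8% of all 19526 genes tested then. The first and second comparisons share the shNC_H2O2 libraries, so a gene high or low in those 4 libraries moves in opposite directions in the 2 comparisons by construction.

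**Figure D1:**
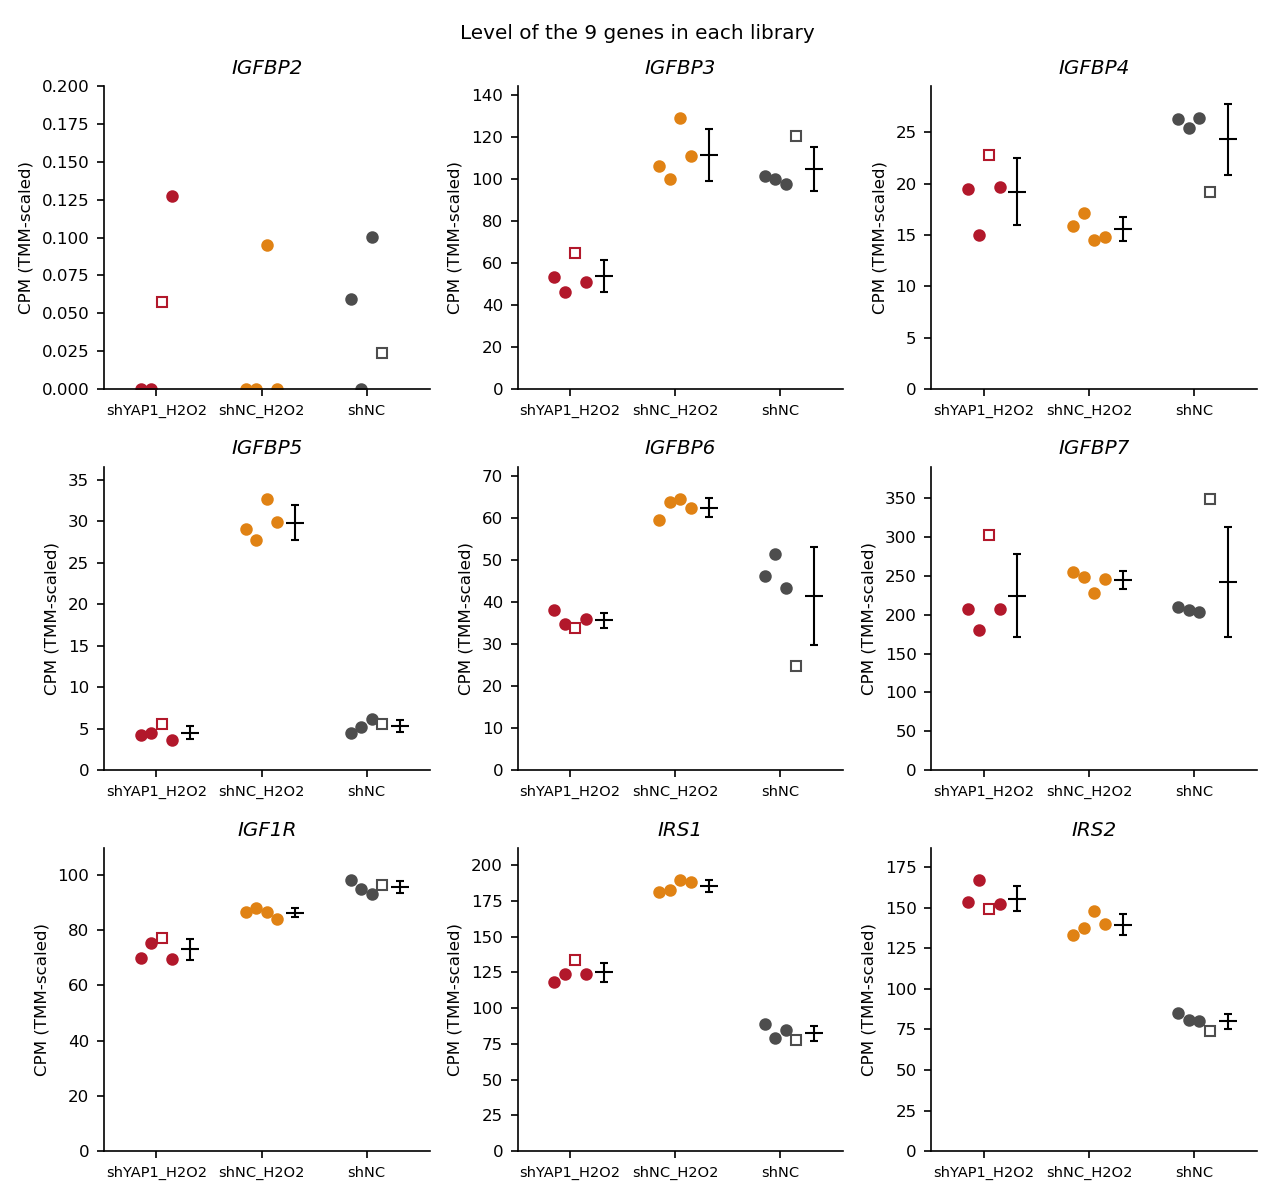
Level of each of the 9 genes in every library, in TMM-scaled CPM from 0, by group. Points are libraries (open squares are the 2 libraries with 11.3% and 13.9% mitochondrial counts), and the black bar is the mean with its SD of 4 libraries, left out for IGFBP2. IGFBP5 sits between 27.7 and 32.6 CPM in shNC_H2O2 and below 6.2 CPM in the other libraries, and IRS1 takes 3 separate levels.

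IGFBP5 changed most of the 9 genes. It encodes a binding protein that also attaches to the extracellular matrix, where its affinity for IGF is lower, and it lies on chromosome 2 (GRCh38, 216672105 to 216695525, minus strand, ENSG00000115461). Its level was 4.27, 4.49, 5.60 and 3.68 CPM in shYAP1_H2O2, 29.1, 27.7, 32.6 and 29.9 CPM in shNC_H2O2, against 4.43, 5.25, 6.19 and 5.52 CPM in shNC. All 4 libraries with the control hairpin and H2O2 stood high, and the ranges of the other groups overlapped each other. With H2O2 it was 5.56-fold higher, at 29.8 ± 2.08 CPM in shNC_H2O2 and 5.34 ± 0.728 CPM in shNC (2.48 ± 0.13, adjusted p = 3.14e-10). In shYAP1_H2O2 it was 6.63-fold lower than in shNC_H2O2 (-2.73 ± 0.13, adjusted p = 2.42e-10). Of all tested genes 7.25% rose and 6.50% fell at least 2-fold with H2O2, and 5.07% rose and 5.62% fell at least 2-fold in shYAP1_H2O2 against shNC_H2O2. Between shYAP1_H2O2 and shNC, where 3.24% of all tested genes rose and 2.56% fell at least 2-fold, none of the 8 did. Against untreated cells IGFBP5 did not pass (-0.25 ± 0.13, 95% interval -0.53 to 0.02, adjusted p = 0.154), but without the 2 libraries of high mitochondrial share it was lower in shYAP1_H2O2 (-0.38 ± 0.12, adjusted p = 0.00787), as it was without shYAP1_H2O2 replicate 3 alone (-0.37).

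Of the fibroblast markers 4 were tested, of which 3 were higher and 1 lower with H2O2, and 2 lower and none higher with the hairpin. Of all tested genes 23.9% were higher and 22.6% lower with H2O2, and 22.0% higher and 21.0% lower with the hairpin. The 8 listed genes summed to 144 to 172 CPM in shYAP1_H2O2, 236 to 255 CPM in shNC_H2O2 and 110 to 113 CPM in shNC. LUM and COL1A1 made up most of that sum, and COL1A2, which fibroblasts express beside COL1A1, had 0 counts in all 12 libraries. Endothelial markers summed to at most 0.481 CPM and leukocyte markers to at most 2.20 CPM in any library. The part of other cells in the result was not tested, and in bulk RNA fewer cells of a type and less RNA per cell cannot be told apart.

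IGFBP6 (ENSG00000167779, chromosome 12, 53097436 to 53102345, plus strand), a binding protein with a preference for IGF2, rose and fell in the same comparisons by smaller amounts. Per library it was at 38.0, 34.8, 33.9 and 36.0 CPM in shYAP1_H2O2, 59.5, 63.8, 64.4 and 62.3 CPM in shNC_H2O2, against 46.3, 51.4, 43.3 and 24.8 CPM in shNC. The shNC_H2O2 libraries were above all others, and shNC replicate 4, of high mitochondrial share, was the lowest of the 12. IGFBP6 was 1.51-fold higher with H2O2 (0.59 ± 0.16, adjusted p = 0.00624) and 1.75-fold lower in shYAP1_H2O2 than in shNC_H2O2 (-0.81 ± 0.16, adjusted p = 0.000806). Without the 2 libraries the rise with H2O2 was 0.40 ± 0.05 (adjusted p = 1.99e-08), and IGFBP6 was then also lower in shYAP1_H2O2 than in shNC (-0.38 ± 0.06, adjusted p = 5.81e-07), a difference that did not pass with all libraries (-0.21 ± 0.16, adjusted p = 0.332) and that passed without shNC replicate 4 alone (-0.40). The 50 tested genes around its place on chromosome 12 were shifted by a median of 0.26 with H2O2, and with that shift removed the rise was 0.36 and did not pass (adjusted p = 0.0786).

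IGFBP3 (ENSG00000146674, chromosome 7, 45912245 to 45921874, minus strand), the main carrier of IGF in serum, differed with the hairpin but not detectably with H2O2. It stood at 53.3, 46.4, 64.5 and 50.9 CPM in shYAP1_H2O2, 106, 100.1, 129 and 111 CPM in shNC_H2O2, against 101, 99.8, 97.6 and 120.3 CPM in shNC. All 4 shYAP1_H2O2 libraries lay below every library of the other groups, whose ranges overlapped. The level was 53.7 ± 7.73 CPM in shYAP1_H2O2 and 111 ± 12.4 CPM in shNC_H2O2, 2.07-fold lower (-1.05 ± 0.11, adjusted p = 9.63e-07). Against shNC, at 105 ± 10.5 CPM, it was 1.95-fold lower (-0.96 ± 0.11, adjusted p = 4.58e-06). The difference between shNC_H2O2 and shNC was 0.09 ± 0.10 with a 95% interval of -0.13 to 0.31 (adjusted p = 0.507). Of the 8 tested genes IGFBP3 alone was called lower in shYAP1_H2O2 against both other groups and was not called with H2O2. Without the 2 libraries of high mitochondrial share the differences were -1.15 against shNC_H2O2, -0.995 against shNC and 0.15 with H2O2, with the same calls.

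IGFBP4 (ENSG00000141753, chromosome 17, 40443461 to 40457731, plus strand), a binding protein that is the main substrate of the protease PAPPA, was lower with H2O2. Its level was 19.5, 14.97, 22.8 and 19.7 CPM in shYAP1_H2O2, 15.9, 17.1, 14.6 and 14.8 CPM in shNC_H2O2, against 26.3, 25.5, 26.4 and 19.2 CPM in shNC. The shNC_H2O2 libraries lay below all shNC libraries, and the shYAP1_H2O2 libraries overlapped both. IGFBP4 fell with H2O2 to 15.6 ± 1.16 CPM in shNC_H2O2, against 24.3 ± 3.46 CPM in shNC (-0.64 ± 0.13, adjusted p = 0.000581). In shYAP1_H2O2 it was 1.23-fold the level of shNC_H2O2, which did not pass with all libraries (0.30 ± 0.13, adjusted p = 0.0648) and passed without the 2 of high mitochondrial share (0.21 ± 0.08, adjusted p = 0.0212), without shNC replicate 4 alone (0.30) and without shYAP1_H2O2 replicate 2 alone (0.41). Against shNC it was lower with all libraries (-0.34 ± 0.13, adjusted p = 0.0496), a call that was lost in 13 of 20 alternative settings, 10 of them leaving out any 1 library other than shNC replicate 4 or shYAP1_H2O2 replicate 3 (-0.35 to -0.23), and that stood at -0.53 ± 0.08 without the 2 libraries (adjusted p = 2.43e-06).

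IGFBP7 (ENSG00000163453, chromosome 4, 57030773 to 57110385, minus strand) was the most abundant of the 9 genes. It encodes a binding protein of low affinity for IGF, which stressed tubular cells secrete and which is used as a urinary marker of kidney injury. The libraries gave 207.5, 181, 303 and 207 CPM in shYAP1_H2O2, 255, 248, 228 and 246 CPM in shNC_H2O2, against 210.5, 206, 204 and 348 CPM in shNC. The highest library of shYAP1_H2O2 and of shNC was in each case the one of high mitochondrial share. With all libraries the 3 comparisons gave 0.01 ± 0.18 for shNC_H2O2 against shNC, -0.12 ± 0.18 for shYAP1_H2O2 against shNC_H2O2 and -0.11 ± 0.18 for shYAP1_H2O2 against shNC, with adjusted p between 0.624 and 0.961. Without those 2 libraries IGFBP7 was higher with H2O2, at 248 ± 11.3 CPM in shNC_H2O2 (n = 4) and 211 ± 3.504 CPM in shNC (n = 3), and lower with the hairpin, at 202 ± 15.8 CPM in shYAP1_H2O2 (n = 3). Those differences were 0.23 ± 0.04 (adjusted p = 3.58e-05) and -0.30 ± 0.04 (adjusted p = 1.14e-06), whereas shYAP1_H2O2 and shNC differed by -0.07 ± 0.05 (adjusted p = 0.246). Exons of other genes cover 18.9% of the exon bases of IGFBP7, so a part of its counts could belong to POLR2B or IGFBP7-AS1.

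**Figure D2:**
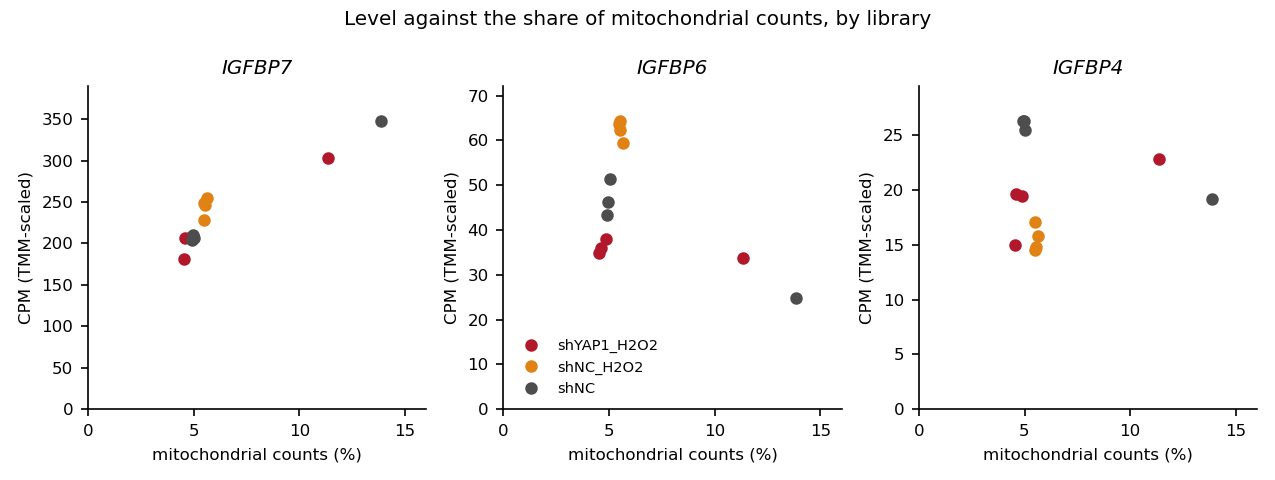
Level of IGFBP7, IGFBP6 and IGFBP4 in each of the 12 libraries (TMM-scaled CPM, from 0) against the percentage of counts from mitochondrially encoded genes. The libraries at 11.3% and 13.9% have the 2 highest IGFBP7 levels, 303 and 348 CPM, and the 2 lowest IGFBP6 levels, 33.9 and 24.8 CPM.

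IGFBP2 (ENSG00000115457, chromosome 2, 216632828 to 216664436, plus strand), which lies 7668 bases from IGFBP5 on chromosome 2 and is transcribed towards it, was at the floor of detection. Its counts were 0, 0, 2 and 6 in shYAP1_H2O2, 0, 0, 3 and 0 in shNC_H2O2, and 2, 0, 4 and 1 in shNC. The floor of 3 counts corresponds to 0.0644 to 0.0974 CPM by library, so no difference could be read for IGFBP2 at this depth. IGFBP1, the neighbour of IGFBP3 on chromosome 7 at a distance of 18576 bases, was low too and fell with H2O2, at 0.165 ± 0.0981 CPM in shNC_H2O2 and 0.607 ± 0.235 CPM in shNC (-1.84 ± 0.42, adjusted p = 0.00204).

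The receptor IGF1R (ENSG00000140443, chromosome 15, 98648539 to 98964530, plus strand) took 3 levels close to each other. Its level was 69.9, 75.2, 77.3 and 69.7 CPM in shYAP1_H2O2, 86.7, 87.9, 86.6 and 84.1 CPM in shNC_H2O2, against 98.0, 95.02, 93.0 and 96.3 CPM in shNC. No library of 1 group overlapped another group. In shYAP1_H2O2 it was at 73.0 ± 3.83 CPM, lower than in shNC_H2O2 at 86.3 ± 1.60 CPM (-0.24 ± 0.06, adjusted p = 0.00222) and than in shNC at 95.6 ± 2.11 CPM (-0.39 ± 0.06, adjusted p = 6.38e-05). The fall with H2O2 was -0.15 ± 0.06 (adjusted p = 0.0397). That call was lost in 11 of 20 alternative settings, 7 of which left out 1 library (any shNC_H2O2 library or shNC replicate 1, 2 or 3, with -0.16 to -0.13). Scaling by library size alone gave -0.07 (adjusted p = 0.385), against -0.15 ± 0.04 without the 2 libraries of high mitochondrial share (adjusted p = 0.000927). The genes around IGF1R towards the end of chromosome 15 were themselves shifted by a median of -0.16, and with their shift removed the difference was -0.01 (adjusted p = 0.892).

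IRS1 (ENSG00000169047, chromosome 2, 226731317 to 226799759, minus strand), the docking protein that couples IGF1R and the insulin receptor to PI3K, took 3 separate levels. It was at 119, 124, 134 and 124 CPM in shYAP1_H2O2, 181, 182, 189 and 188 CPM in shNC_H2O2, against 88.6, 78.8, 84.5 and 77.5 CPM in shNC. The groups did not overlap in any comparison, and of the 8 tested genes 6 did not overlap between shNC_H2O2 and shNC, 6 between shYAP1_H2O2 and shNC_H2O2 and 4 between shYAP1_H2O2 and shNC. Of all tested genes 48.0% did not overlap in the first of these comparisons (25.2% higher, 22.9% lower), 45.2% in the second (22.5% higher, 22.7% lower) and 29.7% in the last (15.8% higher, 13.9% lower). IRS1 was 2.25-fold higher with H2O2 (1.17 ± 0.06, adjusted p = 4.14e-10). In shYAP1_H2O2 it was 1.48-fold lower than in shNC_H2O2 (-0.57 ± 0.06, adjusted p = 1.89e-06) and 1.52-fold higher than in shNC (0.60 ± 0.06, adjusted p = 2.04e-06).

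IRS2 (ENSG00000185950, chromosome 13, 109752698 to 109786568, minus strand), the other main docking protein, rose with H2O2 and was not lower with the hairpin. Its level was 153.5, 167, 149.5 and 152 CPM in shYAP1_H2O2, 133, 138, 148 and 140 CPM in shNC_H2O2, against 85.1, 80.6, 80.4 and 73.7 CPM in shNC. Every library with H2O2 was above every untreated library, and the 4 shYAP1_H2O2 libraries were just above the 4 shNC_H2O2 libraries. It was 1.75-fold higher with H2O2 (0.80 ± 0.06, adjusted p = 3.74e-08) and 1.94-fold higher in shYAP1_H2O2 than in shNC (0.96 ± 0.06, adjusted p = 2.15e-08). Between shYAP1_H2O2 and shNC_H2O2 the difference of 0.16 ± 0.06 missed the threshold (adjusted p = 0.0538) and passed in 7 of 20 alternative settings, among them without the 2 libraries of high mitochondrial share (0.17 ± 0.04, adjusted p = 0.000312). It also passed without shNC replicate 4 (0.15), shNC_H2O2 replicate 3 (0.18) or shYAP1_H2O2 replicate 3 (0.18) alone.

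The ratio of IRS1 to IRS2, each as CPM per kilobase of exon, differed between the groups. It was 0.631, 0.608, 0.733 and 0.664 in shYAP1_H2O2, 1.11, 1.08, 1.05 and 1.1 in shNC_H2O2, and 0.851, 0.799, 0.859 and 0.859 in shNC. On this scale IRS1 exceeded IRS2 in the shNC_H2O2 libraries and in no other. In CPM it was also above IRS2 in shNC replicates 1 (88.6 and 85.1), 3 (84.5 and 80.4) and 4 (77.5 and 73.7 CPM). Which gene is the higher thus depends on the exon lengths used, and the expressed isoforms were not determined. The sum of both per kilobase was 31.7 ± 0.978 in shYAP1_H2O2, 35.8 ± 1.17 in shNC_H2O2 and 18.1 ± 1.09 in shNC, so the libraries of both H2O2 groups lay well above the untreated ones in the summed level.

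**Figure D3:**
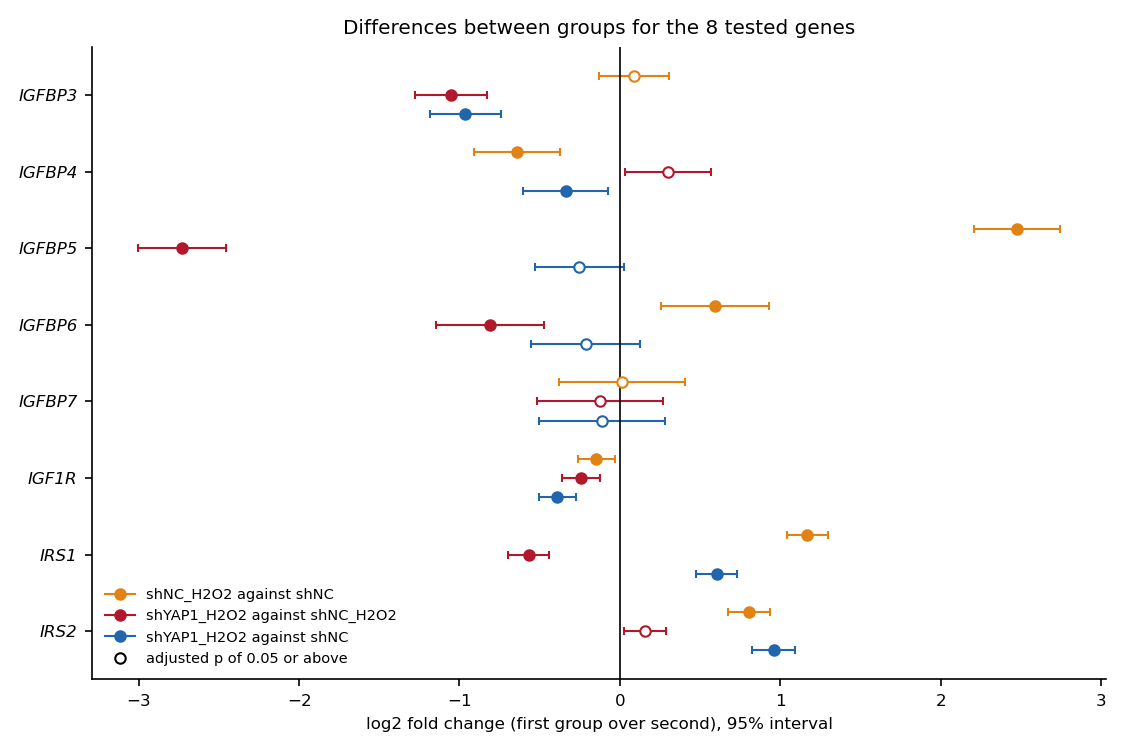
Log2 fold change of the 8 tested genes in the 3 comparisons, with 95% intervals from edgeR and the first group over the second. Filled points passed an adjusted p of 0.05. IGFBP5 has the largest changes, 2.48 with H2O2 and -2.73 with the YAP1 hairpin, and IGFBP7 has intervals across 0 in all 3 comparisons.

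Permuting the libraries, an exact two-sided test on log2 CPM without the count model, gave p = 0.0286, the smallest p that its 70 assignments allow, for IGFBP5, IGFBP6, IGFBP4, IGF1R, IRS1 and IRS2 in shNC_H2O2 against shNC. It gave the same p for IGFBP3, IGFBP5, IGFBP6, IGF1R, IRS1 and IRS2 in shYAP1_H2O2 against shNC_H2O2, and for IGFBP3, IGF1R, IRS1 and IRS2 in shYAP1_H2O2 against shNC. IGFBP4 gave an exact permutation p = 0.114 in the last comparison, in which its groups overlapped.

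Per kilobase of exon the order of the levels differed between groups. IGFBP7 came first in all 3 groups, at 116 ± 27.8 CPM per kilobase in shYAP1_H2O2, 127 ± 5.90 in shNC_H2O2 and 125.5 ± 36.7 in shNC. IGFBP6 came second, at 26.5 ± 1.33, 46.4 ± 1.64 and 30.8 ± 8.62 CPM per kilobase in the same groups, not separated beyond the spread from IGFBP3, which followed it, in shNC. IGF1R, IGFBP5 and IGFBP2 were the last 3 in every group. Between them, shNC_H2O2 had IGFBP3 (24.4), IRS1 (18.6), IRS2 (17.2) and IGFBP4 (7.08 CPM per kilobase), all separated beyond their SD. In shYAP1_H2O2 IRS2 (19.1) came next, above IRS1 (12.6), IGFBP3 (11.8) and IGFBP4 (8.74), of which neighbours did not differ beyond their spread. In shNC IGFBP3 (22.9) was followed by IGFBP4 (11.1) and IRS2 (9.83), which did not differ beyond their spread, and by IRS1 (8.27). IGFBP7 made up 70.5% ± 3.47 of the summed IGFBP level per kilobase in shYAP1_H2O2, 60.5% ± 2.22 in shNC_H2O2 and 64.8% ± 8.12 in shNC. With shYAP1_H2O2 replicate 3 and shNC replicate 4 left out the share was 68.7% ± 0.586 in shYAP1_H2O2 and 60.7% ± 0.987 in shNC (n = 3 each). IGFBP7 itself was then at 103 ± 7.94 CPM per kilobase in shYAP1_H2O2 and 107 ± 1.78 in shNC. Over all libraries the other 5 binding proteins summed to 47.7 ± 3.08 CPM per kilobase in shYAP1_H2O2, 82.5 ± 3.67 in shNC_H2O2 and 65.6 ± 7.89 in shNC. With both libraries left out that sum was 46.8 ± 3.00 in shYAP1_H2O2 and 69.3 ± 2.96 in shNC. IGFBP6 stood at 34.9 ± 3.03 CPM per kilobase in the remaining 3 shNC libraries.

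**Figure D4:**
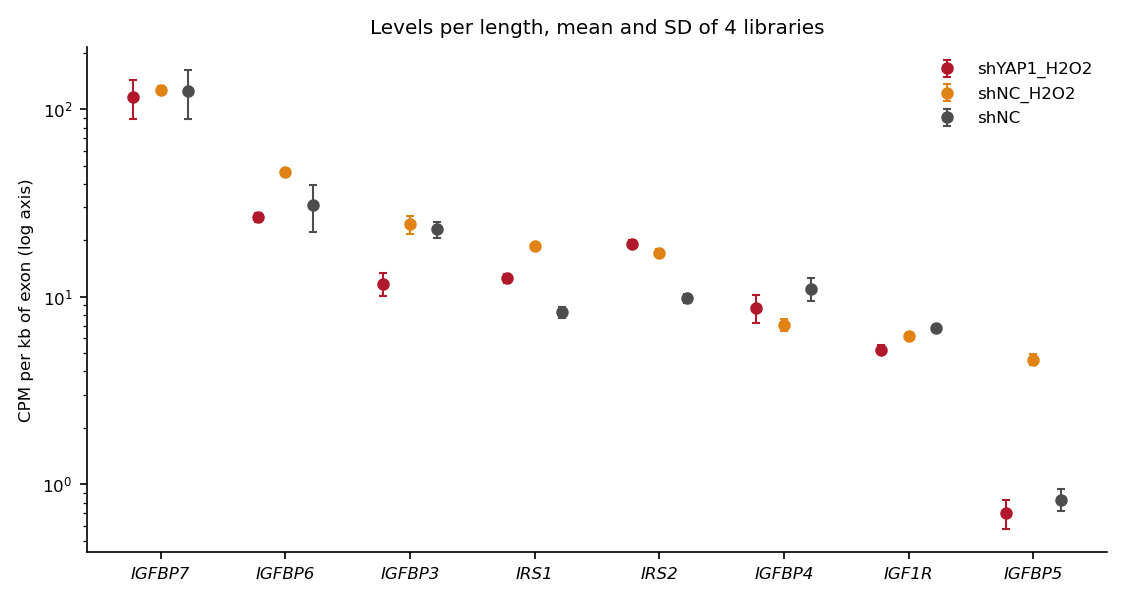
Mean level of the 8 genes above the floor, in CPM per kilobase of exon on a log axis, with the SD of 4 libraries, by group. IGFBP7 is highest at 116 to 127 CPM per kilobase, and IGFBP5 is lowest, at 0.700 in shYAP1_H2O2, 4.63 in shNC_H2O2 and 0.830 in shNC.

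Genes with the pattern most like IGFBP5, IRS1 and IGFBP3, which changed at least 2-fold in some comparison, were sought among 11230 genes by the root mean square (RMS) difference of centred log2 CPM over the 12 libraries. For IGFBP5 they were LTBP2, a matrix protein that binds fibrillin (RMS difference 0.193), SEMA5A (0.22) and VEGFC, a growth factor of lymphatic vessels (0.222). LTBP2 was at 46.2 ± 2.37 CPM in shYAP1_H2O2, 294 ± 13.4 CPM in shNC_H2O2 and 44.8 ± 3.53 CPM in shNC. For IRS1 they were MORC4 (0.0903), CHPF (0.0938) and STAT2, a factor of interferon signalling (0.0944), with MORC4 at 165 ± 9.75, 243 ± 7.10 and 107 ± 1.14 CPM in the same groups. For IGFBP3 they were OLFML2A (0.112), S1PR1 (0.121) and BACE2 (0.129), with OLFML2A at 12.4 ± 0.996, 24.9 ± 0.799 and 22.0 ± 0.378 CPM.

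The promoters of IGFBP5, IGFBP6 and IRS1, the genes that were higher in shNC_H2O2 than in both other groups, are shown with that of IGFBP3. IGFBP3 was lower in shYAP1_H2O2 than in both other groups. So was IGF1R, whose promoter is not shown and held no match to the TEAD motif described next. The genes are sorted here by their levels in these data, and whether a motif goes with a pattern of levels was not tested. YAP1 does not bind DNA itself and acts through TEAD factors, whose core motif is GGAATG, so matches to that motif on either strand are in capitals (CATTCC on the other strand). The sequences are the 250 bases before the RefSeq start (GRCh38.p14), written along the gene's strand, for IGFBP5 chr2:216695550-216695799 (minus), IGFBP6 chr12:53097417-53097666 (plus), IRS1 chr2:226799821-226800070 (minus) and IGFBP3 chr7:45921273-45921522 (minus). The RefSeq starts of IGFBP3 and IGFBP6 lie inside the GENCODE genes, and those of IGFBP5 and IRS1 lie upstream of them.
IGFBP5: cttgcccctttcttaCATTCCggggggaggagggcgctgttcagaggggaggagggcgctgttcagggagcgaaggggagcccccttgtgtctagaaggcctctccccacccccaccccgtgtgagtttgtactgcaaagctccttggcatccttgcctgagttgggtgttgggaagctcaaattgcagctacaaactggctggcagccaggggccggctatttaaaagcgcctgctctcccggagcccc
IGFBP6: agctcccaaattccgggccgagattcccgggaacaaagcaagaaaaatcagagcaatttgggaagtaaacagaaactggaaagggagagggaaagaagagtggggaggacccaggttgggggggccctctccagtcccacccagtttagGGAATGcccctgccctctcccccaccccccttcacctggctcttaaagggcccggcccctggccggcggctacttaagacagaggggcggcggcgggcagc
IRS1: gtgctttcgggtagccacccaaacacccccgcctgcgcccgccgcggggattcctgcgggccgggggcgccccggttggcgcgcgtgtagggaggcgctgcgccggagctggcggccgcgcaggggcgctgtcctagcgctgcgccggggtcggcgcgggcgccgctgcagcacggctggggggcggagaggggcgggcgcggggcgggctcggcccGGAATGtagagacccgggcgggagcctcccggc
IGFBP3: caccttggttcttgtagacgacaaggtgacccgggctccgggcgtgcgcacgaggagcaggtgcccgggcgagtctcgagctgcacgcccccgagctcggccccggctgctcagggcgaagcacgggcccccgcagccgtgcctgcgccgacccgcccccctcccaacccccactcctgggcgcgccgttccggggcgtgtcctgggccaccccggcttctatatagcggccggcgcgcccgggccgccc
The motif was found 235 to 230 bases before the start of IGFBP5, 101 to 96 bases before that of IGFBP6 and 33 to 28 bases before that of IRS1, and not in the window of IGFBP3. Of the 9 genes 8 had a promoter in the table, IGFBP7 being the other, and these 3 of 8 held the motif, as did 11.9% of all 35116 promoters. Members are counted by gene, with a match in any window of the gene, whereas the shares are by promoter window. IGFBP2 had several windows, so the 2 measures are not strictly alike. Other motifs were searched on both strands in the same windows. The GC box GGGCGG lay in all of the 8 but IGFBP5 (42.6% of all promoters), the TATA box TATAAA in IGFBP4 (10.7%), and the forkhead motif TGTTTAC in IGFBP6 (2.98%), whereas its looser form TGTTTNC, which includes it, lay in IGFBP2 and IGFBP6 (15.5%). The AP-1 motif TGANTCA (6.57%), the E-box CACGTG (6.34%), the SMAD motif CAGACA (13.6%) and an NF-kB motif (1.26%) were in 0 of the 8. A string labelled as a serum response element was also in 0 of the 8, and in 13 of all 35116 promoters (0.037%). That string is a single, nearly fixed spelling and does not cover the general form of the element. It was too rare for its absence to be informative, so whether the 8 promoters hold a serum response element was not tested. A match describes the letters of the window only, and binding was not measured.

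Of the wider pathway 82 genes in 7 lists were read, of which 72 were tested. With H2O2 19 were higher and 20 lower, 54.2% called beside 46.6% of all tested genes, and with the hairpin under H2O2 27 were higher and 17 lower, 61.1% beside 43.0%. In shYAP1_H2O2 against shNC 18 were higher and 12 lower, 41.7% beside 32.5%. With the 2 libraries of high mitochondrial share left out, 28 were higher and 29 lower with H2O2, 27 and 24 with the hairpin and 22 and 22 against shNC, which is 79.2%, 70.8% and 61.1% of the 72, beside 59.4%, 57.3% and 46.8% of all genes tested then. In what follows, a pair of log2 fold changes gives H2O2 (shNC_H2O2 against shNC) and then the hairpin (shYAP1_H2O2 against shNC_H2O2). The counts of each list stand beside 23.9% higher and 22.6% lower of all tested genes with H2O2. With the hairpin those shares were 22.0% and 21.0%.

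The first list held 11 other ligands, receptors and binding proteins, of which 5 were tested, with 1 higher and 4 lower with H2O2 and 1 higher and 1 lower with the hairpin. The ligands were barely detected. IGF1 had at most 0.279 CPM and IGF2 at most 0.0508 CPM in any library, so the cells carried a receptor and binding proteins with little IGF mRNA of their own. Other genes cover 82.4% of the exon bases of IGF1 and 75% of those of IGF2, and both are uncertain. IGF2R, the scavenging receptor of IGF2, fell with H2O2 to 415 ± 6.79 CPM in shNC_H2O2, against 563 ± 68.9 CPM in shNC (-0.44 ± 0.08), and was higher in shYAP1_H2O2, at 628 ± 52.3 CPM (0.60 ± 0.08 against shNC_H2O2). INSR, the insulin receptor, fell with H2O2 (-0.33 ± 0.08) and did not pass between shYAP1_H2O2 and shNC_H2O2 (0.06 ± 0.08). With the shift of INSR's neighbours removed the fall was -0.66, and INSR was called higher with the hairpin (0.25, edgeR adjusted p = 0.0148). KAZALD1, an IGFBP-related protein, followed the course of IGFBP5, at 4.83 ± 0.461 CPM in shYAP1_H2O2, 20.8 ± 0.956 CPM in shNC_H2O2 and 5.72 ± 0.969 CPM in shNC. Its rise with H2O2 was 1.87 ± 0.12 and its fall with the hairpin -2.11 ± 0.12. IGFBPL1, another related protein, fell with H2O2 (-0.51 ± 0.12). With all libraries and no shift removed, edgeR adjusted p-values of the calls named here lay between 2.4e-09 and 0.00293.

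All 7 tested genes of the proteases that cut binding proteins, and of their inhibitors, were called with H2O2, 4 higher and 3 lower. Of all tested genes 23.9% were called higher and 22.6% lower in that comparison. PAPPA, which cuts IGFBP4 and IGFBP5, was at 18.5 ± 2.62 CPM in shYAP1_H2O2, 27.2 ± 0.954 CPM in shNC_H2O2 and 5.91 ± 0.508 CPM in shNC. It rose with H2O2 (2.20 ± 0.10), was lower with the hairpin (-0.56 ± 0.10) and stayed above untreated cells (1.64 ± 0.10), although 21.2% of its exon bases lie in an antisense gene, which makes it uncertain. PAPPA2, which cuts IGFBP3 and IGFBP5, went the other way, at 6.84 ± 1.52 CPM in shYAP1_H2O2, 1.17 ± 0.177 CPM in shNC_H2O2 and 2.90 ± 0.521 CPM in shNC. Its log2 fold changes were -1.32 ± 0.20 with H2O2 and 2.55 ± 0.19 with the hairpin under H2O2. HTRA1, a secreted serine protease, rose with H2O2 (2.57 ± 0.15) and was lower with the hairpin (-1.79 ± 0.14). The metalloprotease ADAM12 had the same signs (0.59 ± 0.12 and -1.28 ± 0.12). ADAM9 (-0.42 ± 0.11 and 0.53 ± 0.11) and the lysosomal protease CTSD (-0.33 ± 0.08 and 0.42 ± 0.08) had the opposite signs, but CTSD is uncertain, since other genes cover 52.7% of its exons, and with neighbours' shift removed it was not called with H2O2 (-0.19, adjusted p = 0.0601). STC2, a stanniocalcin that inhibits PAPPA, rose with H2O2 (0.36 ± 0.10) and did not pass with the hairpin (0.01 ± 0.10), and STC1 was at most 0.148 CPM in any library. With the hairpin 3 of the 7 were higher and 3 lower, beside 22.0% and 21.0% of all tested genes.

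Of 4 tested cell-surface partners of binding proteins 1 was lower with H2O2, and 1 was higher and 1 lower with the hairpin, against 3 and 4 called in these comparisons with the 2 libraries of high mitochondrial share left out. ITGA5, the integrin chain that IGFBP1 binds with ITGB1, fell with H2O2 to 75.7 ± 2.88 CPM in shNC_H2O2, against 161 ± 11.4 CPM in shNC (-1.08 ± 0.06). It was higher with the hairpin, at 108 ± 3.63 CPM in shYAP1_H2O2 (0.51 ± 0.06). ITGB1 was lower with the hairpin (-0.26 ± 0.08), and with H2O2 it was at -0.01 ± 0.08, or 0.08 and called without the 2 libraries of high mitochondrial share.

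Of 23 tested adaptors and PI3K-AKT genes 7 were higher and 4 lower with H2O2, with a median of 0.06 beside 0.00 for all tested genes, and 7 were higher and 6 lower with the hairpin. GRB10, an adaptor that restrains the insulin and IGF1 receptors, was at 69.0 ± 3.74 CPM in shYAP1_H2O2, 23.7 ± 2.03 CPM in shNC_H2O2 and 44.9 ± 2.20 CPM in shNC. It fell with H2O2 (-0.92 ± 0.07), and in shYAP1_H2O2 it was above both shNC_H2O2 (1.54 ± 0.07) and shNC (0.62 ± 0.07). GRB14, its relative, had the opposite course, at 22.1 ± 1.65 CPM in shYAP1_H2O2, 48.6 ± 2.52 CPM in shNC_H2O2 and 20.6 ± 1.23 CPM in shNC (1.24 ± 0.08 with H2O2, -1.14 ± 0.08 with the hairpin). SOS1 (0.44 ± 0.12 and -0.49 ± 0.12) and SOS2 (0.62 ± 0.12 and -0.73 ± 0.12), which activate RAS, also rose with H2O2 and were lower with the hairpin, the rise of SOS1 being 0.21 with neighbours' shift removed and no longer called. SOS2 was at 0.39 and -0.33 in that setting and still called. PIK3CB, a catalytic subunit of PI3K, fell with H2O2 (-0.96 ± 0.06) and was higher with the hairpin (0.80 ± 0.06), both still called but at -0.35 and 0.21 with neighbours' shift removed. PIK3CA did likewise (-0.39 ± 0.07 and 0.44 ± 0.07), but another gene covers 35.8% of its exons, and with neighbours' shift removed it stood at 0.21, called in the other direction, with H2O2 and at -0.16, not called, with the hairpin. The regulatory subunit PIK3R1 was higher with the hairpin (0.59 ± 0.09) and did not pass with H2O2 (0.19 ± 0.09). It was called with H2O2 at 0.28 both without shNC replicate 4 and with the 2 libraries left out (edgeR adjusted p = 0.00492 and 7.83e-06), and with library sizes alone. AKT1 rose with H2O2 (0.35 ± 0.11) and was lower with the hairpin (-0.54 ± 0.11), both lost with neighbours' shift removed (0.07 and -0.18). The rise of AKT1 was 0.22, still called, without shNC replicate 4. With the 2 libraries of high mitochondrial share left out, 10 of the 23 genes were higher and 7 lower with H2O2.

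Most of the 19 mTOR, GSK3 and FOXO genes did not pass with H2O2, where 3 were higher and 2 lower, or 7 and 5 when the 2 libraries of high mitochondrial share were left out. RICTOR (0.54 ± 0.09, or 0.29 and still called with neighbours' shift removed), TSC2 (0.35 ± 0.07) and MTOR (0.33 ± 0.06) rose, and GSK3B was lower (-0.62 ± 0.12), or at 0.06 and not called with neighbours' shift removed. With the hairpin 6 were higher and 3 lower, beside 22.0% and 21.0% of all tested genes. They were 6 and 7 when the 2 libraries of high mitochondrial share were left out. EIF4EBP1, the repressor of translation that mTOR inactivates, was higher with the hairpin, at 114 ± 24.9 CPM in shYAP1_H2O2 and 66.9 ± 2.84 CPM in shNC_H2O2 (0.77 ± 0.11). FOXO3, a transcription factor that AKT keeps out of the nucleus, was higher too, at 104 ± 7.58 CPM in shYAP1_H2O2 and 78.4 ± 7.56 CPM in shNC_H2O2 (0.41 ± 0.08), whereas FOXO4 (-0.43 ± 0.12), MTOR (-0.22 ± 0.06) and EIF4EBP2 (-0.34 ± 0.12) were lower, EIF4EBP2 no longer without shYAP1_H2O2 replicate 1, 2 or 4 (-0.32 to -0.29) or shNC_H2O2 replicate 1, 2 or 4 (-0.35 to -0.33). GSK3B was at 0.50 ± 0.12 with the hairpin, and at -0.20 and not called with neighbours' shift removed.

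Of 11 genes that FOXO factors are known to activate, 4 were higher and 3 lower with H2O2, with a median of 0.01. With the hairpin 6 were higher and 3 lower, with a median of 0.31. For all tested genes the hairpin gave 22.0% higher, 21.0% lower and a median of -0.004. Without the 2 libraries of high mitochondrial share 5 of the 11 were higher and 5 lower with H2O2, and 6 and 3 with the hairpin. FOXO activity was not tested. FBXO32, a ubiquitin ligase known from muscle wasting, was at 157 ± 5.28 CPM in shYAP1_H2O2, 113 ± 6.59 CPM in shNC_H2O2 and 70.5 ± 4.52 CPM in shNC. It rose with H2O2 (0.68 ± 0.06) and was higher still with the hairpin (0.48 ± 0.06). PIK3IP1, an inhibitor of PI3K, rose with H2O2 (2.16 ± 0.14) and was lower with the hairpin (-1.42 ± 0.14), as was SESN1 (0.63 ± 0.10 and -0.54 ± 0.10). CITED2 (-0.47 ± 0.11 and 0.84 ± 0.11) and BCL6 (-0.44 ± 0.14 and 1.01 ± 0.14) had the reverse signs, BCL6 at 0.56 with the hairpin, still called, and at 0.13 and not called with H2O2 once neighbours' shift was removed, and not called without shNC replicate 4 (-0.36) or shNC_H2O2 replicate 2 (-0.40). CDKN1B, the cyclin-dependent kinase inhibitor p27, fell with H2O2 (-0.31 ± 0.10), a call that ended in 7 alternative settings, among them without shNC replicate 2 (-0.24) and without any 1 of the shNC_H2O2 libraries (-0.30 to -0.31). KLHL24 was higher with the hairpin (0.49 ± 0.09), or at -0.11 and not called with neighbours' shift removed.

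The 3 IGF2 mRNA-binding proteins, which stabilise IGF2 and other transcripts, were lower with H2O2 in 3 of 3 and higher with the hairpin in 3 of 3. Of all tested genes 22.6% were called lower with H2O2 and 22.0% higher with the hairpin. Both comparisons share the shNC_H2O2 libraries, so the 2 counts are not independent. IGF2BP1 was at 147 ± 14.3 CPM in shYAP1_H2O2, 103 ± 2.87 CPM in shNC_H2O2 and 151 ± 6.15 CPM in shNC (-0.55 ± 0.07 with H2O2, 0.51 ± 0.07 with the hairpin). IGF2BP3 gave -0.87 ± 0.11 and 0.57 ± 0.11. IGF2BP2 gave -0.75 ± 0.13 and 0.65 ± 0.13, both lost with neighbours' shift removed (-0.14 and 0.09).

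**Figure D5:**
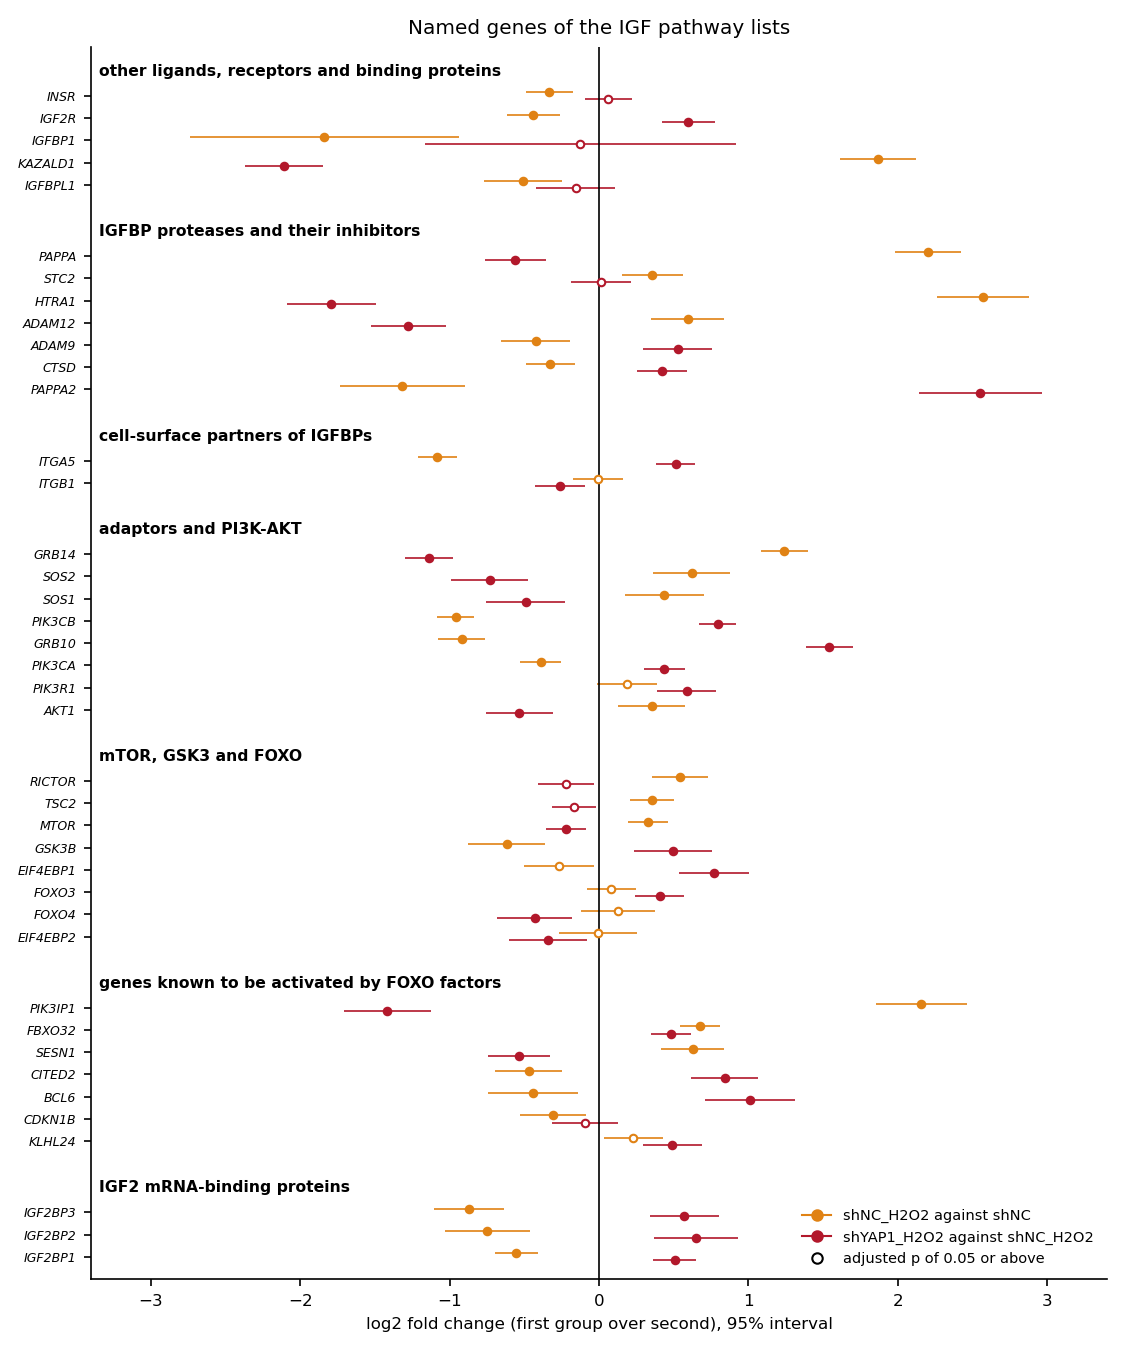
Log2 fold change with its 95% interval for the named genes of the 7 pathway lists, for H2O2 (shNC_H2O2 against shNC) and for the hairpin (shYAP1_H2O2 against shNC_H2O2), which share the shNC_H2O2 libraries. Open points did not pass an adjusted p of 0.05. PAPPA, HTRA1, KAZALD1 and PIK3IP1 lie at 1.87 or above with H2O2 and below 0 with the hairpin, and PAPPA2 and GRB10 lie below 0 with H2O2 and above 1 with the hairpin.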

How the data were processed

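The authors deposited raw counts, whole numbers per gene for each library, not scaled and not pooled over replicates. HISAT2, Subread, featureCounts and DESeq2 and the build GRCh38 (hg38) are named per the submitters' processing notes. No source used here gives their roles, versions or strand setting. Reads from overlapping genes could therefore not be separated, and a gene is called uncertain where other genes cover over 20% of its exons. Per the labels, poly(A) RNA of HK-2 cells was sequenced, although the extraction protocol speaks of kidney tissue. Of 40649 identifiers 40640 were named from a table of gene names and GENCODE 29, whose positions (GRCh38) are used.

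Counts were tested with edgeR 4.0.16 (R 4.3.3, filterByExpr, TMM, robust quasi-likelihood fit, 1 mean per group over all 12 libraries, 9 residual degrees of freedom). Intervals at 95% come from its standard error. The code was first run on simulated counts with the same spread for all genes and no library of high mitochondrial share. That run checks the code and cannot show how the test behaves on data like these. Single genes were also tested by exact permutation of log2(CPM + 0.125) with scipy 1.17.1. The floor is 3 counts, and floors cover counting error only. Replicates differed beyond sampling noise. Chi-square per degree of freedom was 2.85 to 6.39 in pairs without a library of high mitochondrial share and 95.8 to 159 in pairs with 1. Each library was counted as 1, but this spread may be technical and does not show that the libraries were grown separately. Genes, lists and motifs were chosen with earlier results of these data known. All 9 members were named, and from the lists IGF1, IGF2, INSR, IGF2R, IGFBP1, PAPPA, STC1 and STC2 always and up to 3 called genes with the largest rise and fall per list and comparison, with at least 5 CPM in a group. Likewise 3 genes of like pattern were named for each member changed at least 2-fold. Alternatives were DESeq2 1.42.0, other scalings, no filter, 2 groups only, a replicate block and each library left out. Others left out both libraries of high mitochondrial share, or removed the median shift of each gene's tested neighbours in a window of 51 genes. No pairing of samples by replicate number was detected, which does not exclude it.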

Additional observations from a re-analysis of the deposited data

Results flagged for a closer look

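In 27 of 147 groups of 4 libraries of the named genes, 1 library stood apart from its group, since its gap to the nearest library took up more of the group's range than Dixon's critical value for 4 samples allows. Chance gives about 1 in 20 such groups. Of the 27, 23 were in the 2 libraries of high mitochondrial share and 3 were among the IGF binding proteins of interest here.

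In shNC replicate 4, IGFBP3 stood at 120.3 CPM and IGFBP7 at 348.3 CPM, the highest of their group, and IGFBP4 at 19.16 CPM, the lowest. In the same library SOS2 (49.05 CPM), SOS1 (73.59 CPM), GSK3B (186.8 CPM) and EIF4EBP2 (189.8 CPM) were high, and KAZALD1 (4.28 CPM) and AKT1 (63.39 CPM) low.

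In shYAP1_H2O2 replicate 3, PAPPA (22.42 CPM), SOS2 (44.03 CPM), PIK3R1 (63.53 CPM), GSK3B (154.6 CPM), EIF4EBP1 (151.1 CPM), EIF4EBP2 (137.0 CPM), CITED2 (880.2 CPM), BCL6 (65.48 CPM), IGF2BP3 (93.27 CPM) and IGF2BP2 (275.0 CPM) were high. IGF2R (550.5 CPM), PIK3CB (81.09 CPM), SESN1 (8.778 CPM) and CDKN1B (26.68 CPM) were low there. GSK3B, SOS2 and EIF4EBP2 stood high in both libraries.

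In other libraries, IGFBPL1 was low in shYAP1_H2O2 replicate 2 (4.905 CPM), FBXO32 was high in shNC_H2O2 replicate 3 (122.5 CPM), KLHL24 was low in shNC_H2O2 replicate 2 (53.35 CPM) and CDKN1B was high in shNC replicate 2 (53.11 CPM).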

How the results depend on the processing

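Over 20 alternatives, 432 values of the 8 tested genes kept their side of the threshold without a change of sign, 18 gained a call, 25 lost one and 5 changed sign. Those 5, all of IGFBP7, were not called in either setting. Leaving out 1 library put IGFBP7 at -0.064 to 0.234 with H2O2 and -0.286 to 0.111 in shYAP1_H2O2 against shNC. Of the 9 genes, leaving out 1 library called 5 to 6 with H2O2, 5 to 7 in shYAP1_H2O2 against shNC_H2O2 and 4 to 6 against shNC. Over all genes the same settings called 8067 to 10038, 7196 to 9684 and 5346 to 7298. Without both libraries of high mitochondrial share, 8 of the 8 were called in shYAP1_H2O2 against shNC_H2O2, beside 57.3% of all genes tested then. Also without them EIF4EBP2 reversed to 0.149 and ITGB1 to 0.08 with H2O2, both then called, CDKN1B to 0.015 with the hairpin and CTSD to -0.05 in shYAP1_H2O2 against shNC. With neighbouring genes' shift removed, values with H2O2 reversed to 0.131 for BCL6, 0.058 for GSK3B and 0.208 for PIK3CA. In shYAP1_H2O2 against shNC_H2O2 that setting gave -0.198 for GSK3B, -0.11 for KLHL24, -0.161 for PIK3CA and -0.144 for STC2, and against shNC -0.028 for MTOR and 0.062 for SOS2. Library sizes alone turned EIF4EBP2 (0.087) and ITGB1 (0.081) with H2O2 and STC2 (-0.044) with the hairpin. With H2O2 EIF4EBP2 was also at 0.008 with the replicate block and 0.08 with neighbours' shift removed. Leaving out 1 library gave ranges across 0 with H2O2 for EIF4EBP2 (-0.071 to 0.149) and ITGB1 (-0.06 to 0.08), and with the hairpin for CDKN1B (-0.145 to 0.016), IGFBP1 (-0.315 to 0.333) and STC2 (-0.054 to 0.093). Against shNC it did so for GSK3B (-0.216 to 0.036), IGF2BP2 (-0.248 to 0.031), SOS1 (-0.168 to 0.094), SOS2 (-0.229 to 0.022) and YAP1 (-0.088 to 0.016). The cause was not tested. The replicate block called 5 genes of the family with H2O2 (8536 of all genes), 5 with the hairpin (7798) and 4 against shNC (5731). No pairing by replicate number was detected: 2 of 12 same-numbered pairs correlated above 0.1, and a library's best match was its own number in 3 of 24 cases. The check cannot exclude pairing, since the 2 libraries of high mitochondrial share bear different numbers. All settings were chosen with earlier results of these data known. Depth limits IGFBP2, IGF1, IGF2 and STC1, at or near the floor of 3 counts.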
